A study of Mus musculus with 6 samples.

Results

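The astrocyte markers are 10 genes that are widely used to recognise astrocytes in the mouse brain, and they were followed here in RNA-seq libraries of WT microglia at 5 and 24 weeks of age. They were chosen by name and by no cut on their values, as the rows whose Ensembl identifier belongs to Gfap, Aqp4, Aldh1l1, Slc1a3, Slc1a2, Aldoc, Gja1, Sox9, Fgfr3 or Atp1b2. Earlier results of these data were known when the names were chosen. All 10 were found among the 38924 genes of the count tables, and all 10 passed the filter on low counts that left 16157 genes to be tested between the ages. The libraries came from female WT mice, 3 at 5 weeks and 3 at 24 weeks, with 1 mouse per library. Replicate numbers are labels, and the same number at both ages names different mice. Whole brains with the meninges dissected away were dissociated, myelin was removed, and cells were then collected with microbeads that bind CD11b, a surface protein of microglia and other myeloid cells. The study followed a mouse model of Rett syndrome, in which heterozygous (Het) females were set against WT controls of the same age, and the Het libraries were not analysed here. No transgene or treatment is given for the WT mice.

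Astrocytes are glial cells that clear glutamate from synapses, buffer potassium and water, and wrap blood vessels with processes called endfeet. They do not carry CD11b on their surface, so their RNA is not what the selection was designed to collect, although several of these genes are also transcribed by other cells. The paper reports that the isolation typically yields a population that is mostly, but not wholly, microglia. In a library made from many cells at once, fewer cells of a type and less RNA per cell cannot be told apart, and neither can an astrocyte transcript from the same transcript made in another cell. The labelled cell type was checked first. The 14 microglia markers were all present in every library, with summed levels of 31542 to 35999 CPM (normalized counts, scaled to the library total) at 5 weeks and 26546 to 29381 CPM at 24 weeks. The 10 astrocyte markers also had counts in every library, and together they reached 487 to 679 CPM at 5 weeks and 429 to 493 CPM at 24 weeks.

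The depth differed between the ages. Between 23198065 and 46434788 read pairs were counted on genes at 5 weeks, and between 10410625 and 13554336 at 24 weeks. Pairs that fell on no exon made up 40.0 to 41.8% of uniquely placed pairs at 5 weeks and 48.7 to 54.9% at 24 weeks. Each age was sequenced in a lane of its own, and age therefore cannot be told apart from lane. The 24-week replicate 3 stood apart from its label in 1 respect. It held 78 counts of Xist, the RNA of the inactive X chromosome in female cells, where the other 5 libraries held 31677 to 59021, while 4 Y-linked genes had 0 counts in all 6 libraries. Where leaving out this library changed the call of a marker or the count of a list, the value without it is given.

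Between the ages, 2 of the 10 astrocyte markers rose and 4 fell. Sox9, a transcription factor of glial development, was 4.96-fold higher at 24 weeks, and Atp1b2, a subunit of the sodium pump, was 2.29-fold higher. Aqp4, the water channel of the endfeet, was 2.60-fold lower and Aldoc, the brain isoform of the glycolytic enzyme aldolase, was 2.48-fold lower, while Aldh1l1 and Fgfr3 fell by less. Gfap, Slc1a2, Gja1 and Slc1a3 did not pass the test. Values are CPM after TMM normalization, the fold change is 24 weeks over 5 weeks on the log2 scale with its standard error (SE), and a gene passed with a Benjamini-Hochberg adjusted p under 0.05 in the edgeR quasi-likelihood test across all 16157 genes. Of all genes tested, 28.8% passed, 15.5% being higher and 13.3% lower at 24 weeks, beside the 6 of 10 markers. The groups did not overlap for 7 of the 10 markers, against 45.1% of all genes tested. The median log2 fold change of the 10 was −0.55, and that of all genes tested was 0.0037.

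**Figure D1:**
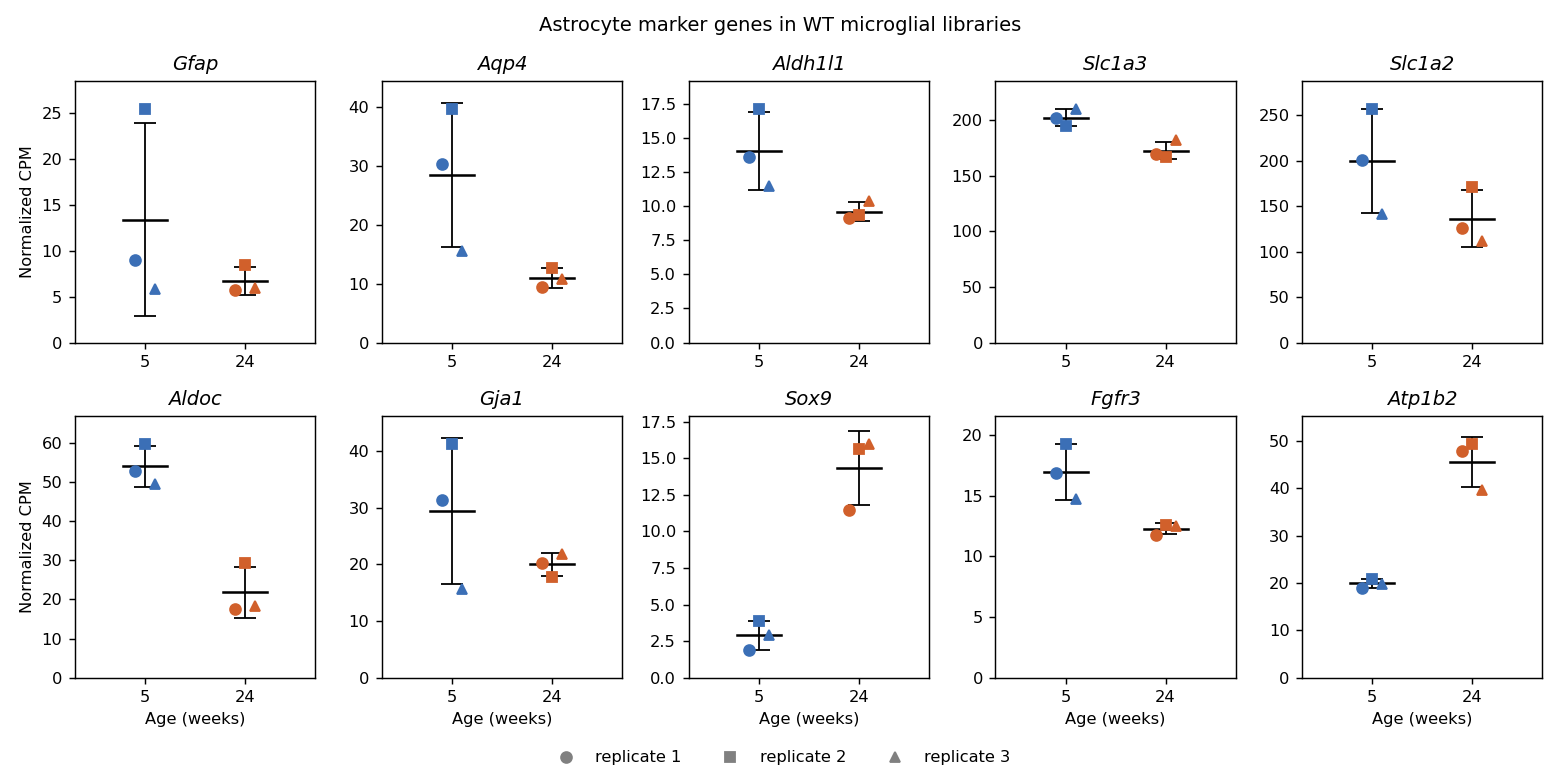
Level of each of the 10 astrocyte markers in every library, in TMM-normalized CPM on linear axes from 0, with 1 point per library, a line at the mean of each age and error bars of 1 SD (n = 3). Sox9 and Atp1b2 are higher in all 3 libraries at 24 weeks than in any at 5 weeks, Aqp4, Aldh1l1, Slc1a3, Aldoc and Fgfr3 are lower in all 3, and Gfap, Slc1a2 and Gja1 overlap.

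The promoters of the 3 markers that fell and have a RefSeq entry are given first, since these genes moved in one direction. RefSeq promoters on GRCm38.p6 were matched for 7 of the 10 markers. The 250 bases before the start were searched on both strands for ACAAT (or ATTGT), the core letters bound by Sox factors, and for TTGGC (or GCCAA), the half-site of nuclear factor I, both of which are families with members on the lists described here. The first was held by 27.7% of all 32851 RefSeq promoters and the second by 41.5%. Of the 7 matched markers, Slc1a3 and Aldoc held the Sox core and Slc1a2 and Aldoc the half-site. A match of 5 letters is a description of the sequence and not a binding site. Each sequence below reads 5′ to 3′ on the plus strand of GRCm38, stops before the first annotated exon base, and has matches in capitals. The window of Aldh1l1 lies inside the annotated gene, directly before an internal transcript start.
Aldoc, chr11:78322823-78322967: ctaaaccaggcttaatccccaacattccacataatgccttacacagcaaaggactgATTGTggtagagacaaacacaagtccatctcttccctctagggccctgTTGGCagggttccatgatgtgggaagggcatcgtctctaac
Aldh1l1, chr6:90550543-90550788: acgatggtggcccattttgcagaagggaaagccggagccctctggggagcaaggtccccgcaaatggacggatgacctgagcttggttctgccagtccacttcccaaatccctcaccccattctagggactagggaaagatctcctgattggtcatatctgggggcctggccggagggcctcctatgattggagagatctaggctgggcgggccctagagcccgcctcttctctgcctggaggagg
Fgfr3, chr5:33721474-33721673: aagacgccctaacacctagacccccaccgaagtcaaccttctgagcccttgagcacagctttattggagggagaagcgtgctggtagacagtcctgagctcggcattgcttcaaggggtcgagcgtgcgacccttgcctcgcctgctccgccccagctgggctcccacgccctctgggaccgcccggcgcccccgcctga
Aldoc carried 1 match of each kind, and the windows of Aldh1l1 and Fgfr3 carried neither. Over the full window the GC content was 55.2% for Aldoc, 59.6% for Aldh1l1 and 66.8% for Fgfr3, against a median of 52.4% over all promoters.

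Sox9 is a transcription factor that sets up the astrocyte programme and stays in the nuclei of mature astrocytes. The gene (ENSMUSG00000000567) lies on the plus strand of chromosome 11, from 112782224 to 112787760 on GRCm38. Its level was 1.91, 3.90 and 2.89 CPM in the 5-week replicates 1, 2 and 3, and 11.5, 15.7 and 16.0 CPM in the 24-week replicates, from 61 to 125 counts and 157 to 212 counts. All 24-week libraries were above all 5-week libraries, although they were sequenced less deeply. The mean rose from 2.90 ± 0.995 to 14.4 ± 2.53 CPM (SD, n = 3 per age), a log2 fold change of 2.32 (SE 0.25, edgeR adjusted p = 0.000118). Sox9 ranked 46 of the 16157 genes tested by fold change, counted from the highest, and it had the lowest raw count of the 10 markers in each 5-week library. Fgfr3, a receptor for fibroblast growth factors that marks astrocytes and their precursors, moved the other way. This gene (ENSMUSG00000054252, chromosome 5, 33721674 to 33737068, plus strand) was at 16.9, 19.3 and 14.7 CPM at 5 weeks and at 11.7, 12.6 and 12.5 CPM at 24 weeks. Its groups did not overlap and the 24-week values lay close together, and the mean fell from 17.0 ± 2.27 to 12.3 ± 0.459 CPM. The log2 fold change was −0.46 (SE 0.14, edgeR adjusted p = 0.0334), and the call was lost without the 24-week replicate 3 (−0.48, edgeR adjusted p = 0.0764). Leaving out the 24-week replicate 1 or 2 or the 5-week replicate 1 or 2 also lost it (edgeR adjusted p of 0.0834 to 0.112).

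Atp1b2 encodes the beta-2 subunit of the sodium pump, which is also known as an adhesion molecule on glia. The gene (ENSMUSG00000041329) lies on the minus strand of chromosome 11, from 69599736 to 69605942. It was at 19.0, 20.9 and 19.8 CPM in the 5-week replicates and at 47.9, 49.3 and 39.5 CPM in the 24-week replicates. The 5-week libraries were nearly level, and the lowest 24-week library was the replicate 3. The mean rose from 19.9 ± 0.959 to 45.6 ± 5.28 CPM, with a log2 fold change of 1.20 (SE 0.12, edgeR adjusted p = 8.14e-05). Without the 24-week replicate 3 the log2 fold change was 1.29 (edgeR adjusted p = 0.00018). Among the 10 markers it had the smallest adjusted p.

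Aqp4 forms the water channel that is concentrated in the endfoot membrane around vessels. The gene (ENSMUSG00000024411) lies on the minus strand of chromosome 18, from 15389496 to 15410982. Its level was 30.3, 39.6 and 15.5 CPM in the 5-week replicates and 9.41, 12.7 and 10.7 CPM in the 24-week replicates. The 5-week libraries were widely spread, and the lowest of them, replicate 3, was still above every 24-week library. The mean fell from 28.4 ± 12.2 to 11.0 ± 1.66 CPM, with a log2 fold change of −1.37 (SE 0.29, edgeR adjusted p = 0.00529). Gja1, which encodes connexin 43, the main gap junction protein that couples astrocytes, was spread in the same way at 5 weeks. Gja1 (ENSMUSG00000050953, chromosome 10, 56377330 to 56402513, plus strand) was at 31.3, 41.2 and 15.6 CPM at 5 weeks and at 20.3, 17.8 and 21.9 CPM at 24 weeks. The groups overlapped because the 5-week replicate 3 lay below all 24-week libraries. The means were 29.4 ± 12.9 and 20.0 ± 2.04 CPM, and the log2 fold change of −0.55 did not pass (SE 0.28, edgeR adjusted p = 0.16). Leaving out the 5-week replicate 3 moved Gja1 to −0.85 (edgeR adjusted p = 0.00119), and leaving out replicate 2 moved it to −0.23 (edgeR adjusted p = 0.512).

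Aldoc encodes aldolase C, the glycolytic enzyme isoform that is abundant in astrocytes. The gene (ENSMUSG00000017390) lies on the plus strand of chromosome 11, from 78322968 to 78327781, directly after the sequence printed for it. Its level was 53.0, 59.8 and 49.6 CPM in the 5-week replicates and 17.7, 29.4 and 18.3 CPM in the 24-week replicates. The groups were far apart, and replicate 2 was the highest at each age. The mean fell from 54.1 ± 5.20 to 21.8 ± 6.61 CPM, with a log2 fold change of −1.31 (SE 0.18, edgeR adjusted p = 0.00053). Aldh1l1 encodes a folate enzyme whose promoter is used in transgenic mice to mark astrocytes throughout the brain. Aldh1l1 (ENSMUSG00000030088, chromosome 6, 90486427 to 90600203, plus strand) was at 13.6, 17.1 and 11.5 CPM at 5 weeks and at 9.12, 9.31 and 10.4 CPM at 24 weeks. The lowest 5-week library lay just above the highest 24-week library. The mean fell from 14.0 ± 2.86 to 9.60 ± 0.673 CPM, with a log2 fold change of −0.55 (SE 0.17, edgeR adjusted p = 0.0377). This call was lost without the 24-week replicate 3 (−0.60, edgeR adjusted p = 0.0607), and also without the 24-week replicate 1 or 2 or the 5-week replicate 1 or 2 (edgeR adjusted p of 0.0751 to 0.121). In GENCODE mouse release 21, an exon of Aldh1l1 overlaps one of the predicted gene Gm45901 on the same strand. The pairs were counted on Ensembl gene models of another release. Whether this overlap took pairs from the count of Aldh1l1 was not tested.

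The glutamate transporters carry glutamate from the synapse into the astrocyte. Slc1a3 encodes GLAST and Slc1a2 encodes GLT-1, and together they made up 66.5 to 72.2% of the summed CPM of the 10 markers at 5 weeks and 68.5 to 68.9% at 24 weeks. Slc1a3 (ENSMUSG00000005360, chromosome 15, 8634124 to 8710764, minus strand) was at 202, 195 and 210 CPM in the 5-week replicates and at 170, 167 and 182 CPM in the 24-week replicates. It had the smallest spread of the 10 relative to its level at 5 weeks, and its groups did not overlap. The means were 202 ± 7.67 and 173 ± 7.94 CPM, and the log2 fold change of −0.23 did not pass (SE 0.10, edgeR adjusted p = 0.111). Slc1a2 (ENSMUSG00000005089, chromosome 2, 102658659 to 102790784, plus strand) was at 201, 257 and 142 CPM at 5 weeks and at 126, 171 and 112 CPM at 24 weeks. The highest 24-week library, replicate 2, lay above the lowest 5-week library, replicate 3. The means were 200 ± 57.5 and 136 ± 31.1 CPM, and the log2 fold change of −0.55 did not pass (SE 0.21, edgeR adjusted p = 0.0694). With the replicate number as a block Slc1a2 passed (−0.54, edgeR adjusted p = 0.00987), although the numbers are labels and not pairs. It also passed without the 5-week replicate 3 (−0.73, edgeR adjusted p = 0.0077) and without the 24-week replicate 2 (−0.75, edgeR adjusted p = 0.0388). Slc1a2 had 99.7, 132 and 67.5 counts per 100 Slc1a3 counts at 5 weeks and 74.2, 103 and 61.5 at 24 weeks, and replicate 2 was the highest and replicate 3 the lowest at each age.

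Gfap encodes the intermediate filament protein of astrocytes and is the gene most often taken as a sign of their activation. The gene (ENSMUSG00000020932) lies on the minus strand of chromosome 11, from 102887336 to 102900912. Its level was 8.97, 25.4 and 5.78 CPM in the 5-week replicates and 5.69, 8.43 and 5.98 CPM in the 24-week replicates. Replicate 2 held the highest value at each age, and at 5 weeks its level was 4.40 times that of replicate 3. The means were 13.4 ± 10.5 and 6.70 ± 1.503 CPM, and the log2 fold change of −0.97 did not pass (SE 0.45, edgeR adjusted p = 0.132). Without the 5-week replicate 2 it was −0.13 (edgeR adjusted p = 0.735), and without the 5-week replicate 3 it was −1.33 (edgeR adjusted p = 0.0214). The size of the difference and its call thus turned on single 5-week libraries.

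**Figure D2:**
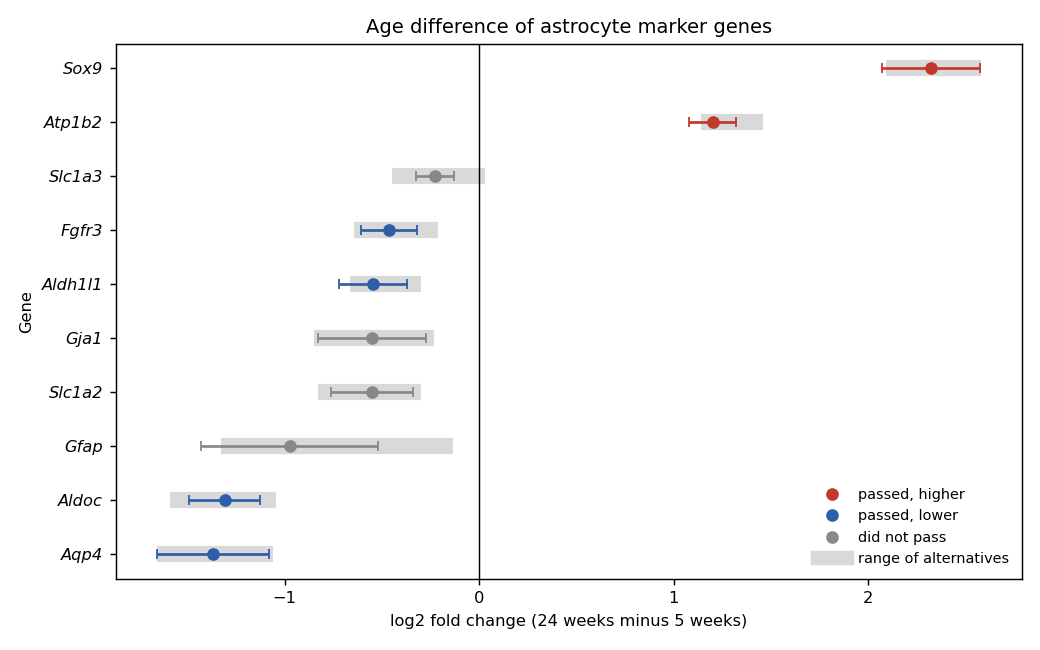
Log2 fold change (24 weeks over 5 weeks) of each astrocyte marker, with bars for 1 SE of the edgeR fit, colours for the markers that passed and those that did not, and a grey band for the range over the 16 alternative settings. Sox9 (2.32) and Atp1b2 (1.20) lie to the right of 0, and the other 8 markers lie to the left, from −0.23 for Slc1a3 to −1.37 for Aqp4.

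The libraries of one age were not interchangeable in these genes. At 5 weeks, replicate 2 was the highest library for 9 of the 10 markers, the exception being Slc1a3, and replicate 3 was the lowest for 7. At 24 weeks, replicate 2 was the highest for 6 markers and replicate 3 for the remaining 4. Over all genes tested, replicate 2 was the highest for 31.1% at 5 weeks and for 30.7% at 24 weeks. The 42 other astrocyte markers had the same replicate on top in 30 genes at 5 weeks and in 27 at 24 weeks, although their summed level at 5 weeks was highest in replicate 3, at 3566 CPM. Much of that sum was 1 gene, Glul, at 1869, 1832 and 2405 CPM in the 5-week replicates 1, 2 and 3. The microglia markers were ordered the opposite way, since replicate 2 was the lowest library for 9 of 14 at 5 weeks and for 14 of 14 at 24 weeks, and the highest for 0. Markers of other cells moved with the same libraries in part. The summed choroid plexus and ependymal markers were 7726 CPM in the 5-week replicate 2 and 5107 and 5425 CPM in replicates 1 and 3, while the summed oligodendrocyte markers were lowest there, at 1765 CPM against 2716 and 3004 CPM. Summed neuron markers were 195 CPM in the 5-week replicate 2 against 156 and 154 CPM, and 214 CPM in the 24-week replicate 2 against 170 and 120 CPM. The part of these other cell types in the spread of the astrocyte markers was not tested.

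The markers were also set against each other within a library, which does not depend on how libraries are scaled. Sox9 had 14.1, 22.8 and 25.2 counts per 100 counts of Aldh1l1 at 5 weeks, and 126, 168 and 154 at 24 weeks. The mean of this ratio was 7.22-fold higher at 24 weeks, and every 24-week library was above every 5-week library. Atp1b2 had 140, 122 and 172 counts per 100 of Aldh1l1 at 5 weeks and 525, 529 and 381 at 24 weeks, a 3.31-fold higher mean without overlap. Gfap had 66.1, 148 and 50.4 counts per 100 of Aldh1l1 at 5 weeks and 62.4, 90.5 and 57.7 at 24 weeks, and the ages overlapped. In CPM, Sox9 and Atp1b2 were higher and Aldh1l1 lower at 24 weeks without overlap, so their ratios could not overlap either. The fall of Aldh1l1 adds to both ratios, since the folds in CPM were 4.96 for Sox9 and 2.29 for Atp1b2. No test was run on any of these ratios.

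**Figure D3:**
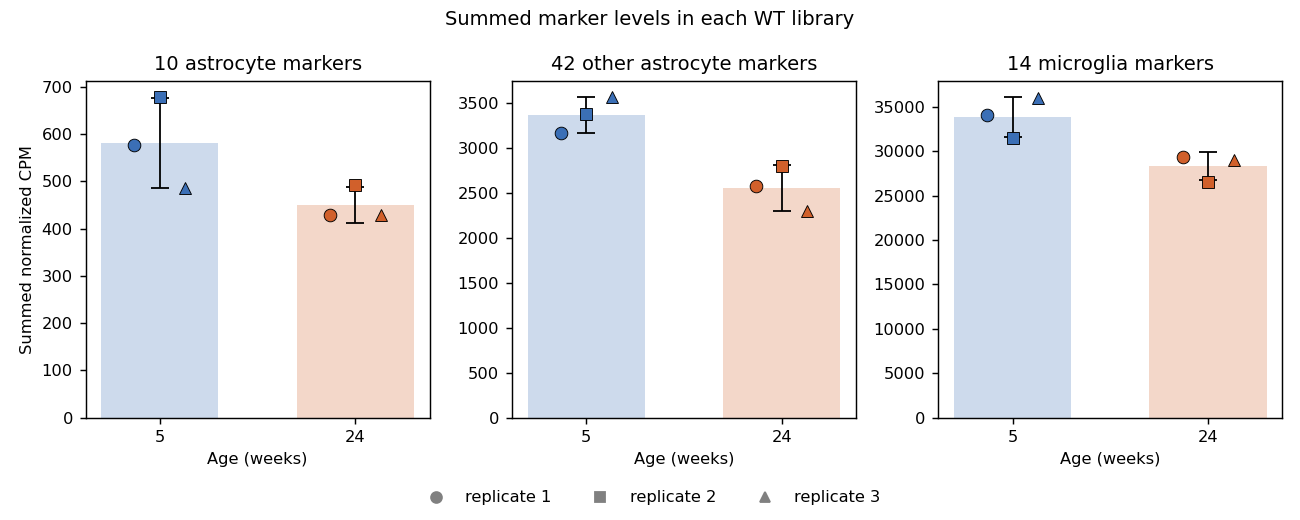
Summed CPM per library of the 10 astrocyte markers, the 42 other astrocyte markers and the 14 microglia markers, with axes from 0, 1 point per library, a bar at the mean of each age and error bars of 1 SD (n = 3). The 10 markers sum to 487 to 679 CPM at 5 weeks and 429 to 493 CPM at 24 weeks, and replicate 2 is the highest library for the 10 at each age and the lowest for the microglia markers. Of the sum of the 42, Glul alone makes 1832 to 2405 CPM at 5 weeks and 1208 to 1564 CPM at 24 weeks.

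The summed level of the 10 markers was 578, 679 and 487 CPM in the 5-week replicates and 429, 493 and 429 CPM in the 24-week replicates (581 ± 95.8 and 450 ± 37.3 CPM), and the ages overlapped. Without Sox9 and Atp1b2, the other 8 summed to 557, 654 and 465 CPM at 5 weeks and to 369, 428 and 373 CPM at 24 weeks, which did not overlap. Sox9 and Atp1b2 are the 2 markers that rose, and the other 8 all had negative log2 fold changes. The lower sum of the 8 at 24 weeks thus follows from how the markers were split. As a share of the summed microglia markers, the 10 made 1.69, 2.15 and 1.35% at 5 weeks and 1.46, 1.86 and 1.48% at 24 weeks. The mean of this share differed by less between the ages (1.73 ± 0.401 and 1.60 ± 0.226%) than between the libraries of one age. When the libraries were scaled to the microglia markers in place of TMM, which moved the median of all genes to 0.26 and the split of all calls from 2505 higher and 2141 lower to 4581 and 735, Sox9 (2.58), Atp1b2 (1.46), Aqp4 (−1.13) and Aldoc (−1.04) still passed, Aldh1l1 (−0.30) and Fgfr3 (−0.21) did not, and Slc1a3 turned to 0.03. With total counts as the scale, all calls split into 3229 higher and 1466 lower, and the same 4 markers passed.

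Levels of different genes were compared as CPM per kilobase of exon. At 5 weeks Slc1a3 came first, with 23.7 ± 0.898, above the next gene in every library. Aldoc (16.6 ± 1.59) and Slc1a2 (15.2 ± 4.38) followed and overlapped each other. Atp1b2, Aqp4, Gfap, Aldh1l1, Gja1 and Fgfr3 formed an overlapping run from 4.86 ± 0.235 to 2.37 ± 0.318, and Sox9 was last with 0.701 ± 0.241, below Fgfr3 in every library. At 24 weeks Slc1a3 was again first, with 20.2 ± 0.930. Atp1b2 had moved to the next place with 11.2 ± 1.29, overlapping Slc1a2 (10.4 ± 2.37), and Aldoc had dropped to 6.68 ± 2.03. Sox9 came next, with 3.48 ± 0.611, above all of the last 5 in every library. These were Aldh1l1, Gja1, Aqp4, Fgfr3 and Gfap, whose neighbours overlapped between 2.13 ± 0.149 and 1.59 ± 0.356.

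For each marker, the genes with the most similar pattern over the 6 libraries were found among 10111 candidates, as the smallest root mean square (RMS) difference of log2 CPM centred on each gene's mean. The pattern of Aldoc was nearest to that of Acsbg1 (RMS 0.03), a fatty acid enzyme of the other astrocyte list, and then of Ncan (0.19), a proteoglycan of the same list. Aqp4 was nearest to the small RNA gene Gm25099 (0.19) and to Cpe (0.21), again of the other astrocyte list. Sox9 was nearest to Tead1 (0.14) and Cobll1 (0.15), whose own log2 fold changes were 2.29 and 2.48, and Atp1b2 to Abcc4 (0.05) and Zmat3 (0.06), with 1.18 and 1.15. The pattern includes the age difference, so the likeness of these fold changes follows from how the genes were picked. Gfap had no gene closer than Gpm6a (0.34) and Slc24a5 (0.39). The remaining pairs were Dbi and Reps2 for Aldh1l1 (both 0.05), Eif2b5 (0.01) and Mfsd11 (0.02) for Slc1a3, Scg3 (0.06) and Calml4 (0.12) for Slc1a2, Slc7a11 and Zxdb for Gja1 (both 0.15), and Mpc2 (0.02) and Eif4e (0.04) for Fgfr3. Among the markers themselves, Aldh1l1 and Fgfr3 lay closest (0.08), Aqp4 and Aldoc were each other's nearest (0.36), and so were Sox9 and Atp1b2 at a larger distance (0.67).

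Related genes were read from lists around the roles of the markers. Of all genes tested, 15.5% were higher and 13.3% lower, and these shares stand beside the counts of every list below. That is 2505 genes higher and 2141 lower. Without the 5-week replicates 1, 2 and 3 in turn, these were 1639 and 1290, 2165 and 1904, and 3255 and 2798. Without the 24-week replicates 1, 2 and 3 in turn, they were 1748 and 1332, 1670 and 1160, and 1968 and 1491. List counts with 1 library left out are to be read beside these. Among the 42 other astrocyte markers, 4 rose and 19 fell. The number lower was 17 without the 24-week replicate 3, 14 without the 24-week replicate 1 and 13 scaled to the microglia markers. In the last 2 settings, 1332 and 735 of all 16157 genes were lower. The median of their log2 fold changes was −0.59. Gpr37l1, an orphan receptor of astrocytes, fell from 23.6 ± 3.49 to 7.32 ± 1.80 CPM (log2 fold change −1.68, edgeR adjusted p = 0.000138) and Ncan from 16.3 ± 2.12 to 6.54 ± 0.695 CPM (−1.31, edgeR adjusted p = 0.000273). Prdm16, a transcriptional regulator, rose from 11.6 ± 1.53 to 29.3 ± 2.13 CPM (1.35, edgeR adjusted p = 7.78e-05) and Nfia, a nuclear factor I gene, from 73.6 ± 8.82 to 150.3 ± 3.16 CPM (1.03, edgeR adjusted p = 0.000131). The list of FGF receptor, Sox and nuclear factor I genes had 4 of 9 tested genes higher and 0 lower (median 0.49), and the 4 were Nfix (1.29), Nfib (1.16), Nfia (1.03) and the receptor Fgfr1 (0.81). Fgfr3 and Fgfr1 were called in opposite directions. Of the 18 sodium pump and glycolysis genes, 1 rose and 8 fell (median −0.37), and the number lower was 3 without the 24-week replicate 3, the 24-week replicate 2 or the 5-week replicate 1, and 5 without the 24-week replicate 1. The 1 that rose was Atp1b1 (61.2 ± 20.2 to 130 ± 9.79 CPM, log2 fold change 1.09, edgeR adjusted p = 0.00272), the beta-1 subunit of the pump to which Atp1b2 belongs. The glycolytic genes Tpi1 (−0.86), Pkm (−0.77) and Ldhb (−0.58) were among those that fell, as Aldoc did.

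Of the 14 endfoot and gap junction genes, 5 rose and 3 fell (median 0.33), and without the 24-week replicate 3 the number lower was 2. Mlc1, a membrane protein of the endfeet, fell by 1.41 on the log2 scale, as Aqp4 had, whereas Kcnj10, the potassium channel beside it, rose from 16.8 ± 1.82 to 34.2 ± 8.05 CPM (log2 fold change 1.03, edgeR adjusted p = 0.00141), and Dag1 (0.73) and Gja4 (1.19) rose too. Of the 13 glutamate transport and recycling genes tested, of 14 listed, 4 rose and 1 fell (median 0.06). These counts were 2 and 0 without the 24-week replicate 3 or 1, 2 and 1 without the 24-week replicate 2, 1 and 0 without the 5-week replicate 1, and 4 and 3 without the 5-week replicate 3. Glul, glutamine synthetase, was the 1 that fell, from 2035 ± 320 to 1414 ± 185 CPM (log2 fold change −0.53, edgeR adjusted p = 0.0272), while the amino acid carriers Slc38a1 (0.49) and Slc38a3 (0.46) rose. Of the 10 reactive astrocyte genes tested, of 13 listed, 5 rose and 0 fell (median 0.45), and without the 24-week replicate 3 the number higher was 3. Osmr, the oncostatin M receptor, led them with 1.45 (3.92 ± 0.679 to 10.6 ± 1.29 CPM, edgeR adjusted p = 0.000406), C3, a complement protein that microglia also make, had 0.82, and Vim, an intermediate filament gene like Gfap, had 0.25 and did not pass (edgeR adjusted p = 0.111). The reactive genes not tested had means of 0.43 CPM or less at 5 weeks, and all had lower means at 24 weeks. With no filter on low counts, 5 of the 13 reactive genes were higher and 0 lower, with a median of 0.30.

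**Figure D4:**
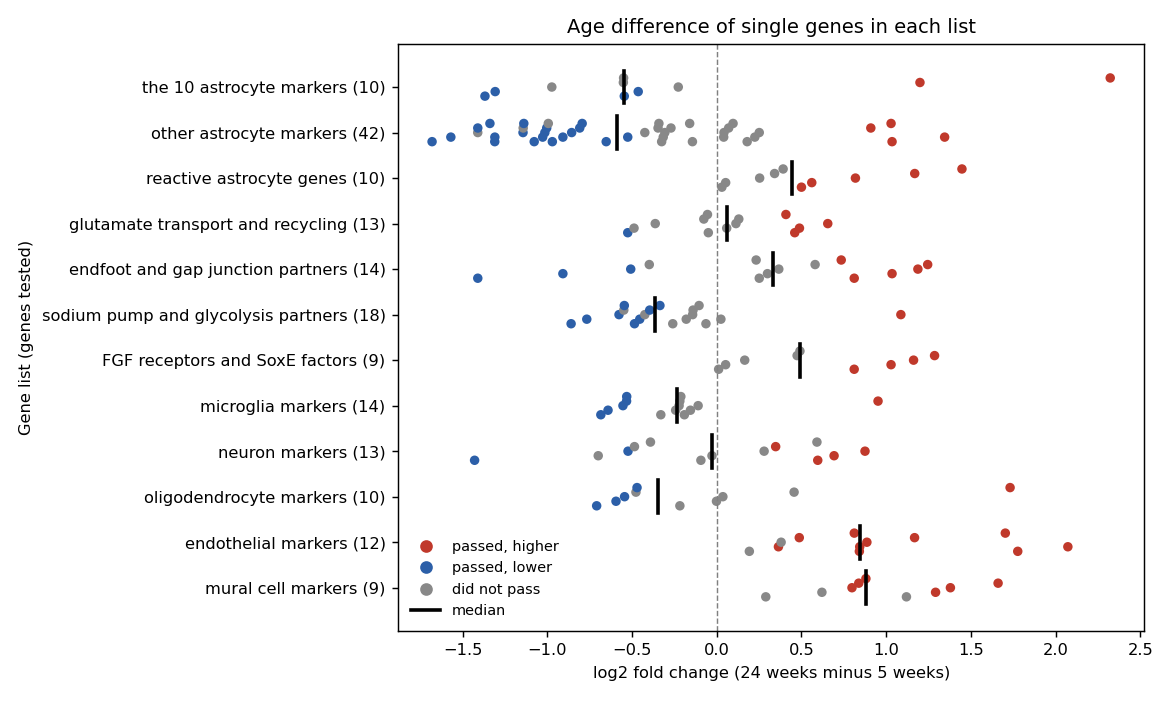
Log2 fold change (24 weeks over 5 weeks) of every tested gene of each list, 1 point per gene, coloured by whether it passed, with a black line at the list's median. The 10 astrocyte markers (median −0.55) and the 42 other astrocyte markers (−0.59) lie mostly below 0, and the endothelial (0.84) and mural cell lists (0.88) lie mostly above it.

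Markers of other cell types differed between the ages as well, and these values stand beside the astrocyte markers because several of the listed genes are used by more than one cell type. The summed endothelial markers were 456 to 490 CPM at 5 weeks and 938 to 1030 CPM at 24 weeks. Of these markers 10 of 12 were higher and 0 lower (median 0.84), led by Flt1 (2.07), a receptor for vascular growth factors. The number higher was 9 without the 24-week replicate 3 or 2, and 8 without replicate 1 of either age. The summed mural cell markers were 134 to 169 CPM and 262 to 290 CPM, with 6 of 9 higher and 0 lower (median 0.88). Sox9 and Atp1b2 rose together with both lists, and the part of vascular cells in their rise was not tested. The microglia markers had 1 of 14 higher (Sall1, 0.95) and 5 lower (4 without the 24-week replicate 3 and 3 without the 24-week replicate 2), with a median of −0.23 that turned to 0.03 when the libraries were scaled to these same markers. Of the neuron markers 4 of 13 were higher and 2 lower (median −0.03). The neuron counts changed when single libraries were left out, as the counts over all genes did. They were 1 and 1 without the 24-week replicate 3, and 0 and 2 without the 24-week replicate 2. Without the 5-week replicate 2 they were 1 and 2, and without the 5-week replicate 3 they were 3 and 1. They were 0 and 0 without replicate 1 of either age. The median of the neuron markers was 0.26 without the 24-week replicate 3. Of the oligodendrocyte markers 1 of 10 was higher and 4 were lower (median −0.34), and the number lower was 3 without the 24-week replicate 3, 2 without the 24-week replicate 2 and 1 without replicate 1 of either age. Scaled to the microglia markers, 2 oligodendrocyte markers were higher and 0 lower. No listed gene of these 5 cell types was at 0 in any library.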

How the data were processed

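RNA was extracted from CD11b-selected microglia of 6 WT female mice and sequenced as strand-specific paired libraries. The values are raw counts deposited by the authors, 1 table per library, in whole read pairs per Ensembl gene. In the authors' pipeline, trim_galore removed adapters, TopHat2 2.0.13 placed the pairs on GRCm38, and HTSeq 0.6.1 counted those on exons in its reverse-strand mode, so antisense genes are kept apart. The 5 rows that name no gene were left out. Every column was used. Of 38924 identifiers, 37607 were given a symbol, position and exon length by GENCODE (mouse release 21). Promoters are those of RefSeq.

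Age differences were fitted with the quasi-likelihood method of edgeR 4.0.16 (R 4.3.3) on TMM-scaled counts, after its default low-count filter by age. Age was the term, and p-values were adjusted by Benjamini-Hochberg over the whole table. The SE was taken as |log2 fold change| / √F. CPM was computed with those factors, a prior count of 0.5 was used for log2 CPM, and per-kilobase values used the union of exons. The test was checked on simulated data with 200 genes changed. It found 23.0% of 1.5-fold, 74.2% of 2-fold and 89.1% of 4-fold changes, with 9 false calls among 16157 genes. Most differences near 1.5-fold were thus missed in that check. Age was confounded with sequencing lane. Replicates are separate mice.

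Samples were grouped by title, and numbers given to replicates are labels. Same-numbered libraries did not deviate together (Pearson's r across genes of 0.06, 0.09 and −0.05), so the numbers were not treated as pairs. Alternatives were DESeq2 size factors, DESeq2 1.42.0, limma-voom (limma 3.58.1), total counts, scaling to microglia markers, length and GC trends removed, no filter, at least 50 counts in every library, thinning, the replicate block and leaving out each library. The markers, the lists and the tests were chosen with earlier results of these data known. Genes named are the 10 markers, up to 4 genes with the smallest p and up to 2 with the highest CPM of each other list, and the nearest genes (average log2 CPM of at least 3), with Xist and Y-linked genes as a check.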

Additional observations from a re-analysis of the deposited data

How the results depend on the processing

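Over the 16 alternatives, Sox9 (log2 fold change 2.09 to 2.58) and Atp1b2 (1.14 to 1.46) stayed higher and Aldoc (−1.59 to −1.04) and Aqp4 (−1.66 to −1.06) stayed lower at 24 weeks, and all 4 passed each time. The number of markers higher was 2 in all 16. Aldh1l1 and Fgfr3 passed in 7 of 16 each, Slc1a2 in 6, Gja1 in 3, Gfap in 2 and Slc1a3 in 1. The number of markers lower, 4 in the reported fit, was 2 with total counts, with scaling to the microglia markers, with limma-voom and after thinning the 5-week libraries, and 7 with length and GC trends removed and with no filter on low counts. The count over all 16157 genes moved as well. It was 2141 lower in the reported fit, and 1466, 735, 1937, 2008 and 2980 in these settings in turn. With no filter it was 2591 of 24342 genes. Leaving out 1 library gave 2 to 7 markers lower, with 7 without the 5-week replicate 3, 3 without the 24-week replicate 2, and 2 without any other library. The causes were not tested. Scaled to the microglia markers, Slc1a3 reversed to 0.0316 (edgeR adjusted p = 0.836), and 4581 genes were higher and 735 lower. Leaving out 1 library moved the count over all genes from 1639 (without the 5-week replicate 1) to 3255 (without the 5-week replicate 3) higher, and from 1160 (without the 24-week replicate 2) to 2798 lower. The log2 ratio of the markers' mean summed CPM was −0.37, and −0.47 to −0.25 in its alternatives. The log2 ratio of their share of the microglia markers was −0.12, and −0.27 to 0.07, being positive without the 5-week replicate 2. With the replicate block, 2 markers were higher and 5 lower, Slc1a2 being the 1 gained, and 2424 genes were higher and 1951 lower. At 5 weeks replicate 1 deviated most like the 24-week replicate 3 (r = 0.07), not its own number. After the 5-week libraries were thinned to the 24-week depth, Sox9 passed (2.23, edgeR adjusted p = 0.000191), and Aldh1l1 (edgeR adjusted p = 0.0726) and Fgfr3 (edgeR adjusted p = 0.0546) did not. The lowest single counts were 61 for Sox9 and 64 for Gfap.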

Other observations

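Further lists of cells that a CD11b selection or brain dissection could carry were read beside the astrocyte markers. All but 1 of the 7 border-associated macrophage markers were lower at 24 weeks and 0 were higher (median log2 fold change −1.09), with Cbr2 (−1.45), Cd163 (−1.09) and Mrc1 (−1.05) among them, and the summed level was 1007 to 1337 CPM at 5 weeks and 515 to 618 CPM at 24 weeks. Of the choroid plexus and ependymal markers, 8 of 10 were tested, 1 was higher (Dnah11, 1.27) and 0 were lower, with a median of 0.12, and 3 were higher without the 5-week replicate 2. Of the oligodendrocyte precursor markers, 6 of 7 were tested, with Cspg4 (1.28), which mural cells also use, higher and Gpr17 (−1.61) lower, and a median of 0.24, and 2 were higher without the 24-week replicate 3. The 8 meningeal fibroblast markers had 1 higher (Igf2, 1.21), 1 lower (Col3a1, −1.66) and a median of −0.25, and 3 were lower without the 5-week replicate 3. Their summed level was nevertheless higher at 24 weeks, at 220 to 238 CPM against 90.6 to 164 CPM at 5 weeks. Of the neutrophil and monocyte markers, 6 of 8 were tested and 0 passed in edgeR, as in DESeq2 and limma-voom, and 0 had an unadjusted p under 0.05 (median −0.30). Without the 5-week replicate 3, 1 was lower, and with no filter on low counts 3 of 8 were lower.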
